A study of Mus musculus with 6 samples.

Results

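The transcription factor p53 (gene Trp53) and 9 genes that it is known to activate were described in Dppa2-deficient mouse embryonic stem cells with Flag-tagged Dppa2 put back, in the same cells with an empty vector, and in wild-type cells. The 10 genes were Trp53, Mdm2, Cdkn1a, Gadd45a, Ccng1, Bax, Bbc3, Pmaip1, Sesn2 and Trp53inp1. They were chosen by name, and every probe whose RefSeq accession leads to one of these symbols was taken. This gave 14 of the 41059 probes kept on the arrays and 10 of the 18516 gene symbols.

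Total RNA was measured with 1 colour (Cy3) on 6 Agilent arrays, 2 in each of 3 groups. The Flag-Dppa2 knockout cells (15-2KO_Flag15-2) were 15-2-/- and 15-1CT/CT and carried the vector piggyBac-CAG-Flag15-2-IP, in which the general CAG promoter drives Flag-tagged Dppa2. The mock knockout cells (15-2KO_mock) had the same 2 genotypes and carried piggyBac-CAG-IP without an insert. The wild-type cells (WT) were 15-1+/+ and 15-2+/+ and received no vector. Here 15-2 stands for Dppa2 (ECAT15-2) and 15-1 for its neighbour and relative Dppa4 (ECAT15-1), so the 15-1CT/CT genotype and the transduction also separate both knockout groups from wild type. All cells had a mixed background of 129Sv, C57/BL6 and a Cre or FLPe strain of unknown origin, and grew on gelatin with LIF and 15% fetal calf serum. The lines came from blastocysts of 2 mothers. Replicate 1 of both knockout groups was 1 knockout line and replicate 2 another, called line 1 and line 2 here, and each line is a single derivation.

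In textbook terms, p53 is made all the time and destroyed through the ubiquitin ligase Mdm2. DNA damage or other stress stabilizes the protein, which then binds paired half-sites in DNA and raises the transcription of genes that halt the cell cycle, repair DNA or trigger apoptosis, and of Mdm2 itself as negative feedback. Because this control acts on the protein, the Trp53 mRNA is no measure of p53 activity. In mouse embryonic stem cells p53 is also known to favour differentiation after damage. Cdkn1a, Bbc3 (Puma), Pmaip1 (Noxa), Ccng1 and Mdm2 are among its best-known direct targets.

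On each array 55.9% to 60.4% of probes were well above background, no spot was saturated, and the 75th percentile of its signals was 719 to 856 intensity units. Each level is a log2 signal minus the log2 of that percentile, so 0 is the 75th percentile of the array, and they are compared between arrays but not between probes. The number of arrays limits the precision. Dppa2 itself was at -0.05 and 0.35 on the Flag-Dppa2 arrays, at -2.09 and -2.003 on the mock arrays, and at 2.13 and 2.07 on the wild-type arrays. It was thus lowest in mock and stood between mock and wild type with Flag-Dppa2 (adjusted p = 0.0268 for Flag-Dppa2 against mock). Whether its probe lies in the deleted part was not tested. Dppa4 was not called in any comparison, at 0.59 above wild type in mock (SE 0.12, adjusted p = 0.0699). Both Flag-Dppa2 arrays were on 1 slide and the other 4 arrays on another, so slide and Flag-Dppa2 cannot be told apart. Mock and wild type shared a slide.

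The wild-type arrays were much closer to each other than the others. Only 0.448% of 14943 bright spots differed between them by more than the 95% range of the scanner's own error estimate, against 25.5% between the Flag-Dppa2 arrays and 22.8% between the mock arrays. The median SD was 0.17 in Flag-Dppa2, 0.15 in mock and 0.04 in wild type. The wild-type arrays carry labels of different mothers, yet few bright spots differed by more than the scanner's error estimate. For the member probes that estimate was 0.144 to 0.146 log2 units, above the SD between repeated spots of 0.02 to 0.08. The wild-type arrays are counted as 1 sample in the levels, so their mean has no SD. Genes are called from limma over all 6 arrays at a Benjamini-Hochberg adjusted p under 0.05, and once the wild-type arrays were averaged no feature was called in any comparison. p-values measure only the spread between these arrays. RNA was taken from bulk cultures, so fewer cells that express a gene and less RNA per cell cannot be told apart. Of 8 embryonic stem cell markers 7 were measured, all above background on every array, with a summed level of 596 and 674 times the 75th percentile in Flag-Dppa2, 606 and 679 in mock, and 490 and 478 in wild type. The eighth, Nanog, had no tested probe. Such sums are weighted to the brightest probes, here Dppa5a with log2 levels of 8.58 to 8.95.

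Stretches before the transcription start of 3 members are shown as description. The part of these sequences in the levels was not tested. Gadd45a was the one member called between knockout and wild type. Cdkn1a and Ccng1 both differed between the knockout lines. Among the 8 members searched, they hold the only pairs of adjoining p53 half-sites with at most 1 mismatch. Pmaip1 and Trp53inp1 were not searched. Each stretch is the 250 bases upstream of a RefSeq start (GRCm38.p6), 5′ to 3′ on the strand of the gene. In Gadd45a (chr6:67037408-67037657, minus strand) capitals mark 2 octamers, ATTTGCAT and ATGCAAAT, and a CCAAT box. This stretch also holds 1 exact p53 half-site, which is not in capitals. In Cdkn1a (chr17:29090729-29090978, plus strand, the upstream of its 2 starts) and Ccng1 (chr11:40755287-40755536, minus strand) capitals mark the half-site pair.
Gadd45a: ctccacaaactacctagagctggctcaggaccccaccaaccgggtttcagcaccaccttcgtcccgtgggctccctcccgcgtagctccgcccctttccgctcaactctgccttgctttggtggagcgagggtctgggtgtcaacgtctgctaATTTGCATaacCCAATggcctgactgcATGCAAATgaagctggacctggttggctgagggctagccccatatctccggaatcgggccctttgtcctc
Cdkn1a: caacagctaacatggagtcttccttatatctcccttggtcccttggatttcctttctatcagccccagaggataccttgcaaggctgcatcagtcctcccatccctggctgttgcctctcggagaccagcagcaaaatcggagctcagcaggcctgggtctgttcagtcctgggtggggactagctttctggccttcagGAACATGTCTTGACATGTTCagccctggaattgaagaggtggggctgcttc
Ccng1: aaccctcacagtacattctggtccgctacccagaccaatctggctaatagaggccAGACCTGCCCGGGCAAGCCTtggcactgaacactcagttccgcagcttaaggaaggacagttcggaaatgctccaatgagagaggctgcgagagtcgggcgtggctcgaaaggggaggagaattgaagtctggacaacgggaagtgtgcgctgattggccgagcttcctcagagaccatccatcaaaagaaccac

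The half-site pair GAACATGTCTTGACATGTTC of Cdkn1a begins 51 bases before the upstream start, which itself lies 2790 bases before the other start. The pair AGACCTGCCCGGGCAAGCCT of Ccng1 begins 195 bases before its start. Both have 1 mismatch to the p53 consensus, which reads the same on both strands. Such a pair was found in 25 of 32851 mouse promoters of this length, or 0.0761%, and in 2 of the 8 members searched. An exact single half-site was found in 6 of these 8 members, Gadd45a among them, and in 7.13% of all promoters. The octamer (ATTTGCAT or ATGCAAAT, both strands), to which POU-domain factors bind, occurs in 1.60% of all promoters, and the CCAAT box (CCAAT or ATTGG, both strands) in 33.8%. In Gadd45a the octamers begin 97 and 70 bases and the CCAAT box 86 bases before the start. These matches describe letters in a window and show no binding.

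All 14 probes of the 10 genes were well above background on all 6 arrays, with spot signals of 214 to 23133 intensity units. The 4 probes printed in 10 spots had an SD between spots of 0.02 to 0.08 on an array.

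**Figure D1:**
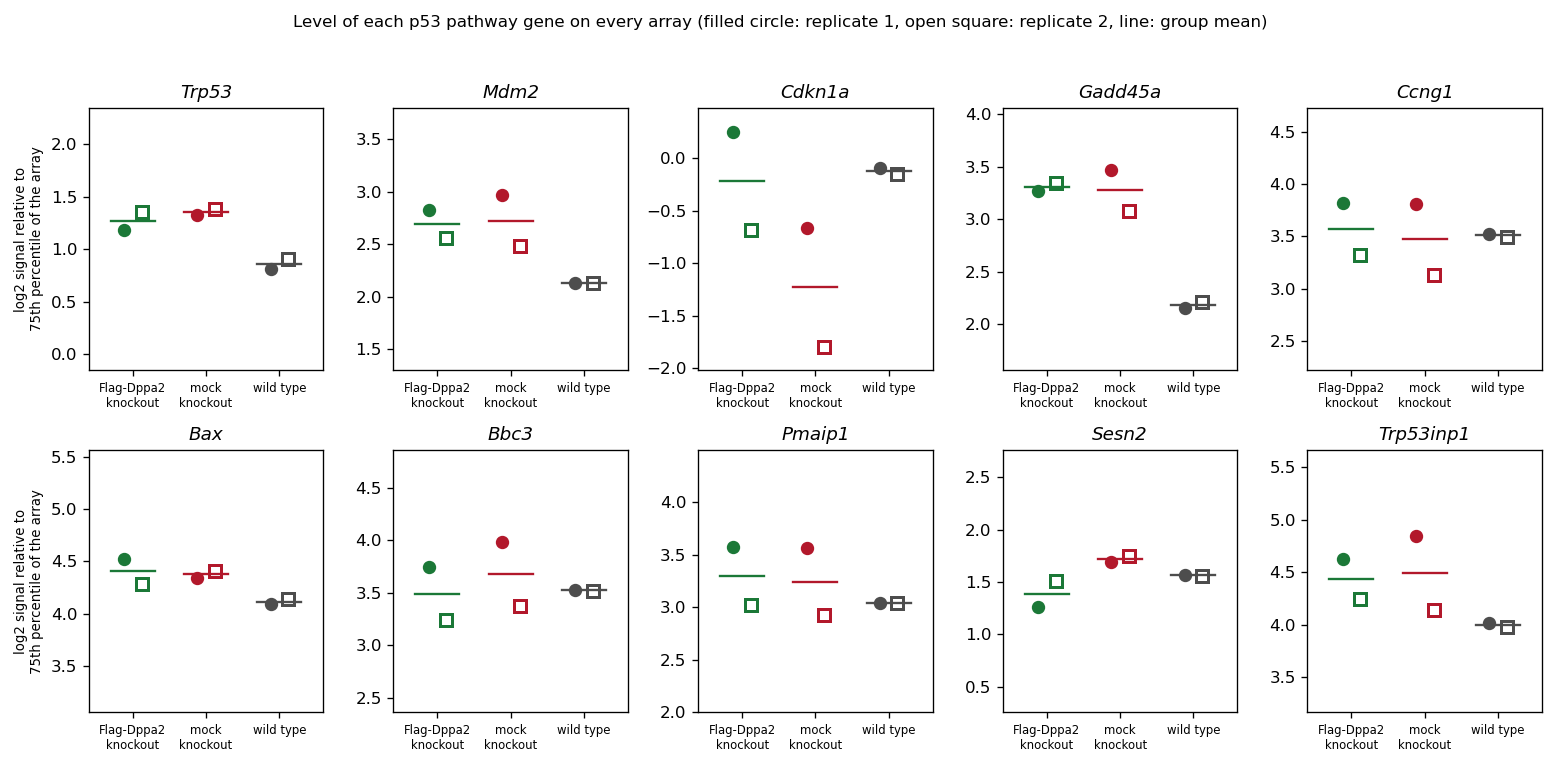
Log2 level of each of the 10 genes (probe with the highest mean) relative to the 75th percentile of the array, in Flag-Dppa2 knockout, mock knockout and wild type. Every panel spans the same range of 2.5 log2 units. Filled circles are replicate 1, open squares replicate 2 and lines group means. Gadd45a, Mdm2, Trp53, Bax and Trp53inp1 were higher on all 4 knockout arrays than on both wild-type arrays. Of all features, 37.2% were above wild type on both mock arrays and 33.2% on both Flag-Dppa2 arrays. The share above on all 4 arrays was not counted. For Cdkn1a, Ccng1, Bbc3, Pmaip1, Mdm2 and Trp53inp1 both line 1 arrays were above both line 2 arrays, as for 23.9% of all features.

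Trp53 encodes p53. Its level was 1.19 and 1.35 on the Flag-Dppa2 arrays, 1.33 and 1.38 on the mock arrays, and 0.81 and 0.91 on the wild-type arrays. All 4 knockout arrays were above both wild-type arrays, and the 2 knockout groups overlapped. The mean was 1.27 ± 0.12 in Flag-Dppa2 and 1.36 ± 0.04 in mock (SD, n = 2 each), against 0.86 in wild type. The difference between mock and wild type was 0.50 (SE 0.11, 1.41-fold) and missed the threshold (limma, adjusted p = 0.0743). That between Flag-Dppa2 and wild type was 0.41 (SE 0.11, adjusted p = 0.143). The second, dimmer probe of Trp53 gave -0.27 and 0.02 in Flag-Dppa2, 0.14 and -0.04 in mock, and -0.32 and -0.30 in wild type. On that probe, too, all knockout arrays were above wild type, by 0.36 (SE 0.14) in mock (adjusted p = 0.205). Trp53 passed the threshold for mock against wild type under 2 of the alternatives, normexp background correction (adjusted p = 0.0443) and an intensity trend in the variance model (adjusted p = 0.0484).

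Mdm2, the ubiquitin ligase that degrades p53 and is itself switched on by it, was at 2.82 and 2.56 in Flag-Dppa2, at 2.97 and 2.48 in mock, and at 2.13 on both wild-type arrays. Every knockout array exceeded both wild-type arrays, and the line 1 arrays were the highest. The difference was 0.59 (SE 0.21) for mock and 0.56 (SE 0.21) for Flag-Dppa2 against wild type, and neither passed (limma, adjusted p = 0.164 and 0.228). The 95% interval for mock against wild type was 0.04 to 1.15 before adjustment. The second probe repeated the order, with -0.07 and -0.49 in Flag-Dppa2, -0.07 and -0.38 in mock, and -0.81 and -0.71 in wild type.

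Among the targets that act on the cell cycle, Gadd45a was the only member called in any of the 3 group comparisons. Gadd45a encodes a stress-induced protein that binds PCNA and CDK1 and takes part in growth arrest and DNA repair. Its level was 3.27 and 3.34 in Flag-Dppa2, 3.47 and 3.08 in mock, and 2.15 and 2.21 in wild type. The lowest knockout array exceeded the higher wild-type array, and the 2 knockout groups overlapped. Gadd45a rose 2.13-fold in mock against wild type, at 3.27 ± 0.28 (SD, n = 2) against 2.18 (log2 difference 1.09, SE 0.16, limma adjusted p = 0.0396). Flag-Dppa2 stood 1.13 (SE 0.16) above wild type, which just missed the threshold (adjusted p = 0.0715), and 0.03 (SE 0.16) above mock, with a 95% interval of -0.39 to 0.46. The call for mock was lost with the replicate number as a block (adjusted p = 0.0694), with only the 4 arrays of the slide (0.0681), and with the wild-type arrays averaged (0.315). It was also lost without either wild-type array (0.304 and 0.280), without the mock array of line 1 (0.0731) and without either Flag-Dppa2 array (0.0681). It passed under 7 of 16 alternatives, and the difference stayed between 0.90 and 1.29 in all of them. The alternatives are not all distinct. Leaving out either Flag-Dppa2 array gives the same fit as the 4 arrays of the slide, because a lone array adds no spread.

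Cdkn1a encodes p21, the inhibitor of cyclin-dependent kinases through which p53 halts the cell cycle. Its level was 0.25 and -0.68 in Flag-Dppa2, -0.66 and -1.79 in mock, and -0.09 and -0.15 in wild type. Both mock arrays were below wild type, and within each line the Flag-Dppa2 array was above the mock array. The Flag-Dppa2 array of line 2 and the mock array of line 1 had nearly the same level. Mock differed from wild type by -1.11 (SE 0.50), at -1.23 ± 0.80 (SD, n = 2) against -0.12, without passing (limma, adjusted p = 0.247). Flag-Dppa2 differed from mock by 1.02 (SE 0.50, adjusted p = 0.491). Within the lines this difference was 0.92 in line 1 and 1.11 in line 2. With the line as a replicate block the adjusted p was 0.325, and 0.155 with that block on the 4 knockout arrays alone.

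Ccng1, which encodes cyclin G1, a p53 target that works with protein phosphatase 2A on Mdm2, was at 3.82 and 3.32 in Flag-Dppa2, 3.81 and 3.13 in mock, and 3.52 and 3.50 in wild type. Line 1 lay above wild type and line 2 below it in both knockout groups. The group means differed by -0.04 (SE 0.30) for mock against wild type, and neither this nor the other comparisons passed. The second probe showed the same split, at 3.14 and 2.52 in Flag-Dppa2, 3.06 and 2.23 in mock, and 2.91 and 2.90 in wild type.

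Bax, Bbc3 and Pmaip1 are the apoptosis genes among the members. Bax, which permeabilizes the outer mitochondrial membrane, was at 4.53 and 4.29 in Flag-Dppa2, 4.34 and 4.41 in mock, and 4.09 and 4.14 in wild type. All knockout arrays were above wild type, by 0.29 (SE 0.12) in Flag-Dppa2 and 0.26 (SE 0.12) in mock, and neither difference passed (limma, adjusted p = 0.265 and 0.253). Bbc3 encodes Puma, a BH3-only protein that triggers Bax and Bak. Its level was 3.74 and 3.24 in Flag-Dppa2, 3.98 and 3.37 in mock, and 3.52 on both wild-type arrays. Pmaip1 encodes Noxa, a BH3-only protein that neutralizes Mcl1. Its level was 3.57 and 3.02 in Flag-Dppa2, 3.57 and 2.92 in mock, and 3.04 on both wild-type arrays. For Bbc3 and Pmaip1, line 1 was above wild type and line 2 below it, and no group comparison passed (adjusted p at least 0.665).

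The 2 remaining members belong to stress responses. Sesn2 encodes sestrin 2, which restrains mTORC1 and oxidative damage. Its level was 1.26 and 1.51 in Flag-Dppa2, 1.69 and 1.75 in mock, and 1.57 and 1.56 in wild type. Both Flag-Dppa2 arrays were below both mock arrays and below wild type. The difference of -0.33 (SE 0.12) between Flag-Dppa2 and mock had the lowest p of the members in that comparison and did not pass (limma, unadjusted p = 0.0459, adjusted p = 0.362). Trp53inp1, a p53-induced nuclear protein linked to apoptosis and autophagy, was at 4.62 and 4.24 in Flag-Dppa2, 4.84 and 4.13 in mock, and 4.02 and 3.98 in wild type. All knockout arrays were above wild type, least so in line 2, and the difference of 0.49 (SE 0.28) between mock and wild type did not pass (adjusted p = 0.342). Its second probe gave 1.66 and 1.51 in Flag-Dppa2, 1.96 and 1.07 in mock, and 1.16 and 1.14 in wild type, so there the mock array of line 2 was below wild type.

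Mock against wild type addresses what goes along with the lack of Dppa2. There 1 of the 10 members was called higher (Gadd45a) and 0 lower, where 2.47% of all 18764 genes and unnamed probes tested were called higher and 3.65% lower (6.12% in all). The 2 mock arrays were above both wild-type arrays for 6 members and below them for 1, Cdkn1a, and the groups overlapped for Ccng1, Bbc3 and Pmaip1. Of all features, 37.2% were above and 28.6% below in this sense. The median difference of the members was 0.23, against 0.05 over all features.

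Flag-Dppa2 against mock addresses what goes along with the return of Dppa2. None of the 10 members was called by limma, where 0.741% of all features were called, 0.703% higher and 0.0373% lower. An unadjusted p under 0.05 was found for 1 of the 10, Sesn2, and for 13.4% of all features. Both Flag-Dppa2 arrays were below both mock arrays for Sesn2 alone and above them for 0 members, where 18.1% of all features were above and 19% below. The median difference was -0.0030 for the members and -0.0063 for all features, and Cdkn1a, at 1.02, had the widest difference.

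Flag-Dppa2 against wild type also called 0 members in limma, where 0.533% of all features were called, 0.144% higher and 0.389% lower. An unadjusted p under 0.05 was found for 3 of the 10 (Trp53, Mdm2 and Gadd45a) and for 21.6% of all features. Both Flag-Dppa2 arrays were above wild type for 5 members and below for 1, Sesn2, against 33.2% and 27.1% of all features. The median was 0.27 for the members and 0.03 for all features. This comparison and mock against wild type share the wild-type arrays. The split of all calls moved with the scaling here: 27 higher and 73 lower as reported, 91 and 131 with quantile normalization, and 192 and 198 with normexp.

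**Figure D2:**
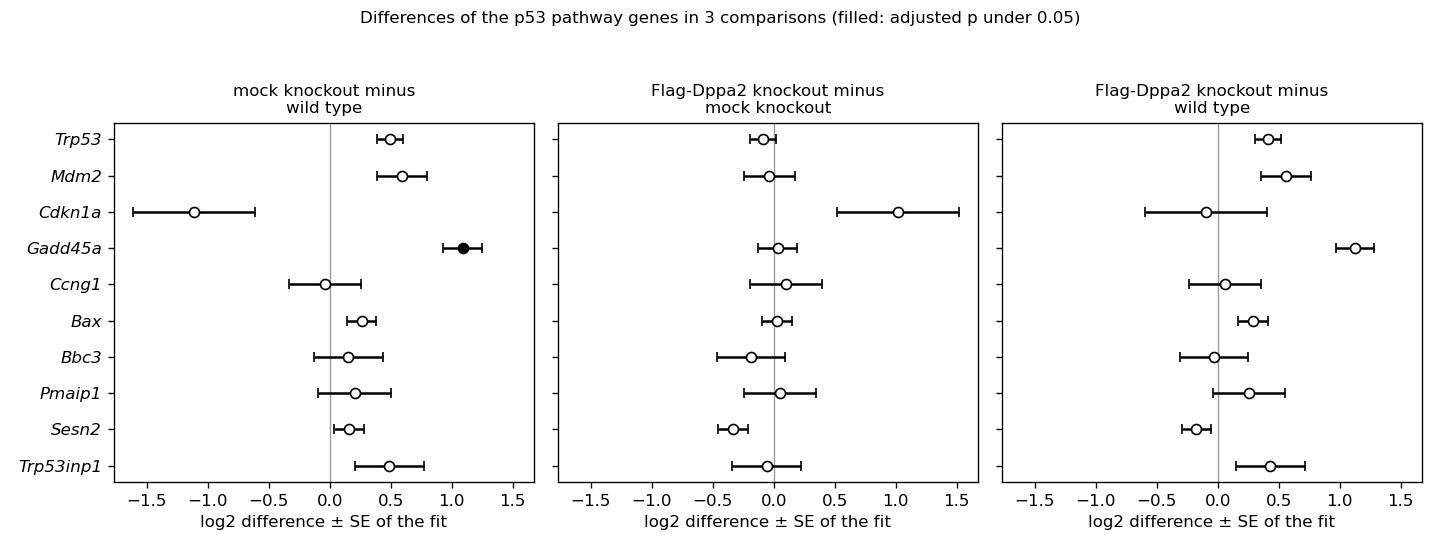
Log2 difference of each gene in mock against wild type, Flag-Dppa2 against mock and Flag-Dppa2 against wild type, with the SE of the limma fit as bars. The filled symbol, Gadd45a at 1.09 in mock against wild type, is the only one with an adjusted p under 0.05.

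More members were called between the 2 knockout lines than in any of the 3 group comparisons. Cdkn1a, Pmaip1, Bbc3, Ccng1 and Trp53inp1 were called higher in line 1 than in line 2, and 0 members were called lower. This comparison, over the mock and Flag-Dppa2 arrays of each line in limma with the groups kept in the model, was added after the data were seen. Such differences were common: 24.9% of all features were called between the lines, 13% higher and 11.9% lower in line 1. Both line 1 arrays were above both line 2 arrays for 6 members and below them for 1, Trp53, against 23.9% and 28.3% of all features. It compares 2 single derivations from different mothers, and the labels give no culture history of the lines.

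Cdkn1a was 1.03 higher in line 1 (SE 0.08, adjusted p = 0.0117), with 0.94 between the Flag-Dppa2 arrays and 1.13 between the mock arrays. Pmaip1 was 0.60 higher (SE 0.06, adjusted p = 0.0148), Bbc3 0.56 (SE 0.06, adjusted p = 0.0169), and Ccng1 0.59 (SE 0.07, adjusted p = 0.0204). Trp53inp1 was 0.54 higher (SE 0.10, adjusted p = 0.0434). The wild-type arrays of the same numbers differed by at most 0.06 for these 5 genes. Mdm2 was 0.38 higher on its brighter probe and missed the threshold (SE 0.08, adjusted p = 0.0506), while its dimmer probe passed where every probe was tested (0.36, SE 0.07, adjusted p = 0.0451). The second probe of Ccng1 also passed there (0.73, adjusted p = 0.0172), and that of Trp53inp1 did not (0.52, adjusted p = 0.156). Trp53 itself was at -0.11 (SE 0.07), Sesn2 at -0.15 (SE 0.07), Gadd45a at 0.16 (SE 0.14) and Bax at 0.09 (SE 0.10), all without passing.

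These calls rest on the wild-type arrays, which supply part of the spread in the fit. With those arrays averaged, or with either left out, 0 members were called, at adjusted p between 0.0858 for Cdkn1a and 0.149 for Trp53inp1, and no feature of the whole table was called. The unadjusted p was under 0.05 for 5 members and for 5350 of 18764 features there. Trp53inp1 was lost without either mock array (adjusted p = 0.0532). The differences themselves do not depend on the wild-type arrays, and averaging those arrays or leaving either out gives the same fit.

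**Figure D3:**
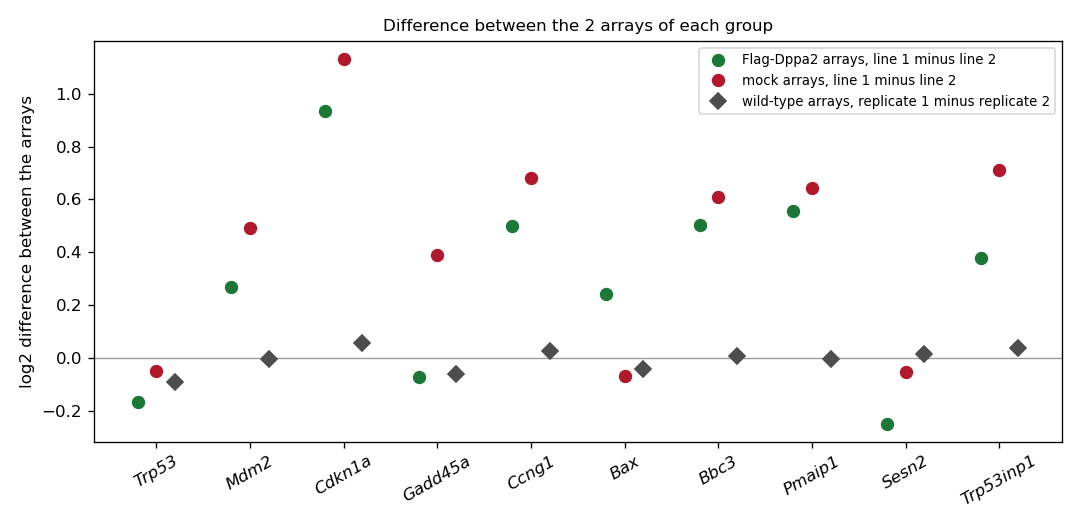
Difference in log2 level between the 2 arrays of each group, line 1 minus line 2 for Flag-Dppa2 and mock and replicate 1 minus replicate 2 for wild type. For Cdkn1a, Ccng1, Bbc3, Pmaip1, Trp53inp1 and Mdm2 both knockout groups were on the positive side (0.27 to 1.13), and the wild-type differences of all 10 genes were between -0.09 and 0.06.

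Further p53 targets split between the lines in both directions. Of 36 tested genes known as p53 targets outside the 10 members, 11 were higher in line 1 and 3 lower, where 13% of all features were higher and 11.9% lower. Among cell-cycle targets 3 of 8 were called, all higher: Plk2, a polo-like kinase, at 0.98 (SE 0.10, adjusted p = 0.0160), the antiproliferative gene Btg2 at 0.79 (SE 0.08, adjusted p = 0.0165) and Rprm (Reprimo) at 0.76 (SE 0.11, adjusted p = 0.0264). Among apoptosis targets 3 of 10 were called, with the death receptor Fas at 1.66 (SE 0.07, adjusted p = 0.00776), Ei24 at 0.39 and the membrane protein Perp at 0.64. DNA repair targets went both ways, with Ddb2 at 0.72 (adjusted p = 0.0199) and Rrm2b at 1.08 (adjusted p = 0.0267, below background on 1 array of line 2) higher and Pcna at -0.27 (adjusted p = 0.0492) lower. Among metabolic and secreted targets, of which 12 were tested, Thbs1 at 2.43 and Ddit4 at 0.92 were among those called higher, while Gls2 at -1.004 and Fdxr at -0.26 were lower. The median over the 36 genes was 0.14, against -0.02 over all features.

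Of 20 tested cell cycle genes that are known to be repressed through p21, 3 were called between the lines, where 24.9% of all features were. Kif20a was higher in line 1 (0.31) and Mcm5 (-0.58) and Mybl2 (-0.46) were lower, and the median was -0.01. Of 10 Bcl2 family members 3 were higher, Bcl2 at 1.14, Bmf at 0.48 and Bik at 0.25. Of 9 tested relatives of the members, Gadd45g (1.01, adjusted p = 0.0122) and Trp53inp2 (0.62) were higher and Sesn1, itself a p53 target, was lower (-0.51, adjusted p = 0.0165). Of 18 genes that regulate p53, Chek2 was higher (0.29, adjusted p = 0.0492) and Cdkn2a, the locus of the Mdm2 inhibitor Arf, was lower (-0.76, adjusted p = 0.0497).

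Markers of other cell types were called between the lines too, where 24.9% of all features were. Of 11 tested fibroblast and feeder markers, 6 were called higher in line 1 (Pdgfrb, Col1a1, Pdgfra, Dcn, Col3a1 and Col1a2) and Thy1 was lower. Pdgfra, Col3a1 and Dcn were not well above background on either line 2 array. The summed level of the 11 markers was 2.92 in line 1 and 2.71 in line 2 with Flag-Dppa2, and 2.29 and 2.42 with mock. The summed trophectoderm markers were at 141 and 43.2 times the 75th percentile in lines 1 and 2 with Flag-Dppa2 and at 47.9 and 27.2 with mock, with Krt18 and Cdx2 called higher in line 1. The sum is weighted to the brightest probes, and Tfap2c (-0.72) and Krt7 (-0.42) were lower in line 1 without being called. Called were 2 of 7 trophectoderm markers, 2 of 7 endoderm markers (Sox17 higher, Sox7 lower), 3 of 7 neural markers (Nes and Zic1 higher, Tubb3 lower) and 2 of 7 embryonic stem cell markers (Klf4 higher, Zfp42 lower at -2.80). The part of these differences in the p53 targets was not tested. The 75th percentile of the signals was also higher in line 1, at 788 against 719 intensity units with Flag-Dppa2 and 806 against 744 with mock.

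**Figure D4:**
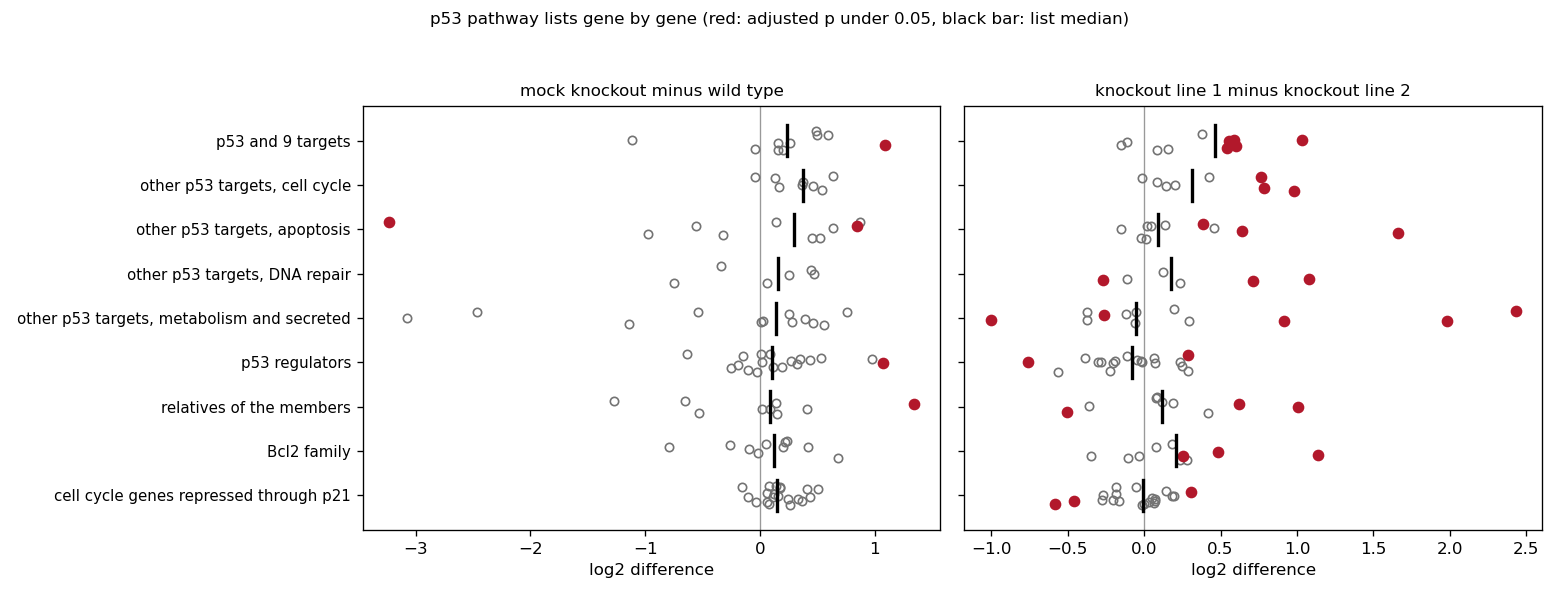
Log2 differences of the p53 lists gene by gene, mock against wild type on the left and knockout line 1 against line 2 on the right. Red symbols have an adjusted p under 0.05 and black bars are list medians. On the left 1 of the 10 genes is red and its list median is 0.23, where 6.12% of all features were called and their median was 0.05. On the right 5 of the 10 are red, all above 0, with a median of 0.46. Between the lines 24.9% of all features were called, 13% higher in line 1, and their median was -0.02.

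Between mock and wild type, the wider p53 network gave few calls. Of the 36 other targets, 1 was called higher and 1 lower, where 2.47% and 3.65% of all features were. Pidd1, which activates caspase 2 downstream of p53, was at -0.05 and 0.02 in Flag-Dppa2, 0.17 and 0.07 in mock, and -0.72 and -0.73 in wild type, and it rose in mock against wild type by 0.84 (SE 0.09, limma adjusted p = 0.0246). A second probe of Pidd1 was called as well (0.93, adjusted p = 0.0232) and the third was not (0.21, adjusted p = 0.289). Steap3, a ferrireductase also known as a p53 target, was not well above background on any knockout array and was at least 3.16-fold lower in mock than in wild type (adjusted p = 0.0311). Plk3, a stress-responsive polo-like kinase, was 0.64 above wild type in mock (SE 0.11) and just missed (adjusted p = 0.0505).

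Among 18 regulators of p53, 1 was called in mock against wild type, where 6.12% of all features were. Trim24, a ubiquitin ligase for p53, was at 4.64 and 4.47 in Flag-Dppa2, 4.73 and 4.32 in mock, and 3.41 and 3.50 in wild type. It rose by 1.07 in mock against wild type (SE 0.17, limma adjusted p = 0.0462) and stood 1.10 above wild type in Flag-Dppa2 (adjusted p = 0.0809). Where every probe was tested, a dimmer probe of Atr passed as lower in mock against wild type (-0.67, limma adjusted p = 0.0417). The other probes of Atr, at -0.64 and -0.67, did not pass. Of 9 relatives of the members 1 was called against that same share, Cdkn1c, which encodes the p57 inhibitor of cyclin-dependent kinases and is imprinted. Its level was 3.84 and 3.57 in Flag-Dppa2, 3.40 and 3.51 in mock, and 2.07 and 2.15 in wild type. Cdkn1c rose in mock (1.34, SE 0.13, adjusted p = 0.0198) and in Flag-Dppa2 (1.60, SE 0.13, adjusted p = 0.0402) against wild type. Of the 10 Bcl2 family genes and the 20 genes repressed through p21, 0 were called in limma in any of the 3 group comparisons. In mock against wild type 3 of each list had an unadjusted p under 0.05, where 27.3% of all features did. Where every probe was tested, the dimmer probe of Bcl2l11 (Bim) passed as lower in mock against wild type (-1.13, limma adjusted p = 0.0406). Its brighter probe was at -0.26 and did not pass. In Flag-Dppa2 against mock 0 genes of the 8 p53 lists were called, and in Flag-Dppa2 against wild type Cdkn1c alone. Of all features, 0.741% and 0.533% were called there.

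The genes of these lists that came next in limma did not pass the threshold, and their values are given as such. In mock against wild type, Gtse1, a G2 and S phase protein that restrains p53, was at 0.54 (SE 0.13, adjusted p = 0.0898). The repair endonuclease gene Ercc5 was at 0.47 and the polymerase gene Polk at 0.44. Glutathione peroxidase Gpx1 was at 0.56 (SE 0.11, adjusted p = 0.0589) and the carnitine palmitoyltransferase Cpt1c at 0.47. The dimmer probe of Cpt1c did pass where every probe was tested (0.65, limma adjusted p = 0.0454). Among regulators Rchy1, a ubiquitin ligase for p53, was at 0.35, and among relatives the sestrin gene Sesn3 was at -1.27 (SE 0.26, adjusted p = 0.0687). Of the Bcl2 family, the BH3-only genes Bik and Bid were at -0.79 (adjusted p = 0.0576) and 0.68 (adjusted p = 0.0857). Of the genes repressed through p21, Cdc20, an activator of the anaphase-promoting complex, was at 0.43 and the phosphatase gene Cdc25c at 0.26.

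Between Flag-Dppa2 and mock the lowest adjusted p of any of these lists was 0.105, for Bik at 0.94 (SE 0.15). Bcl2l11 (Bim) followed in its list at 0.61, and its dimmer probe was at 1.10 without passing. Lpin1, a phosphatidate phosphatase, was at -0.53 (SE 0.09, adjusted p = 0.114) and the epoxide hydrolase Ephx1 at -0.65. Gtse1 was at -0.49 and Rprm at 0.92, and Steap3 was not well above background in either group, with Aen, an apoptosis-enhancing nuclease, at 0.31. The repair genes Xpc and Polk were at -0.20 and -0.13. The deacetylase gene Sirt1 was at -0.59 and the acetyltransferase gene Crebbp at -0.24. The inhibitor gene Cdkn1b (p27) was at -0.39 and Gadd45g at 1.26, and of the genes repressed through p21 Ccnb2 was at -0.33 and E2f1 at 0.41.

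Between Flag-Dppa2 and wild type, Pidd1 was at 0.71 (SE 0.09, adjusted p = 0.0664) and Plk3 at 0.77 (SE 0.11, adjusted p = 0.0718), both without passing. Rprm was at 1.05, Phlda3, an inhibitor of Akt, at 0.45, Ercc5 at 0.49 and Polk at 0.31. Gpx1 was at 0.56 and Ddit4 (Redd1), an inhibitor of mTORC1, at -2.36 (SE 0.45, adjusted p = 0.0970). Cdkn2a was at 1.58 (SE 0.39, adjusted p = 0.133) and Ccng2, a relative of Ccng1, at -0.60. Of the Bcl2 family, Bak1 and Mcl1 were at 0.37 and 0.33, and E2f1 and Cdc20 were at 0.59 and 0.31.

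Fibroblast markers were called in part in these comparisons. Their summed level was 2.92 and 2.71 in Flag-Dppa2, 2.29 and 2.42 in mock, and 6.15 and 6.49 in wild type, in multiples of the 75th percentile. Of the 11 tested, Mmp2, Loxl1 and Fbn1 were called lower in mock against wild type and higher in Flag-Dppa2 against mock. Of all features, 3.65% were called lower in the first comparison and 0.703% higher in the second. Loxl1 was also called lower in Flag-Dppa2 against wild type (-1.94, limma adjusted p = 0.0473), where 0.389% of all features were. Pdgfra went the other way in mock against wild type, but it was not well above background on either wild-type array or on the mock array of line 2. Col1a1 (-0.10), Pdgfrb (-0.43) and Thy1 (-0.26) did so in Flag-Dppa2 against mock, all without being called. On the mock arrays Fbn1, Loxl1 and Dcn were not well above background. Of other markers, the endoderm gene Amn (-3.03) and the neural gene Nes (-1.72) were lower and the neural gene Zic1 was at least 4.48-fold higher in mock against wild type. The remaining endoderm markers were not called there and went both ways, with Gata4 and Sox17 higher and Dab2, Foxa2, Gata6 and Sox7 lower. The summed endoderm markers were at 2.07 and 1.55 in Flag-Dppa2, 0.899 and 0.665 in mock, and 1.39 in wild type. Of 7 trophectoderm markers 0 were called by limma in any of the 3 group comparisons, with 2 at an unadjusted p under 0.05 in mock against wild type, and their sum was 141 and 43.2 in Flag-Dppa2, 47.9 and 27.2 in mock, and 77.9 and 78.7 in wild type. The neural markers summed to 7.01 and 9.58 in Flag-Dppa2, 6.03 and 8.72 in mock, and 10.1 and 10.2 in wild type. The part of these markers in the levels of the p53 genes was not tested.

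The genes whose levels ran most like those of 3 members over the 6 arrays were found by the root mean square difference of centred log2 levels, among the 11785 genes that were above background everywhere. For Trp53 they were Sde2 (0.023), Zfp574 (0.024) and Txndc11 (0.029), where the median over all genes was 0.28. For Cdkn1a they were the POU factor genes Pou3f3 (0.063) and Pou3f1 (0.074), and Sel1l3 (0.086), with a median of 0.71. For Gadd45a they were Trim24 (0.071), Zfp282 (0.074) and Slc27a3 (0.086), with a median of 0.55. Pou3f1, was at 5.53 and 4.76 in Flag-Dppa2, 4.74 and 3.73 in mock, and 5.29 and 5.28 in wild type. As for Cdkn1a, its mock array of line 2 was lowest and its Flag-Dppa2 array of line 1 highest. The likeness is a description over 6 arrays that share their lines.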

How the data were processed

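Total RNA of 6 samples was measured on 1-colour arrays. Intensity values were, per the file headers, made with Agilent Feature Extraction 10.7.3.1 (protocol GE1_107_Sep09, build mm9), which subtracts background and detrends within the array without scaling between arrays. The series matrix as deposited holds log2 values that the authors made with GeneSpring GX 11, per the series text. Its column medians were 5.84 on all arrays and its values correlated at 0.9997 or more with the log2 scanner signals. Scale and direction are thus known, and the equal medians show scaling between arrays without centring of genes, by a method that is not stated. It served as 1 alternative.

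Of 45018 spots, 1639 were controls. These and outlier spots were dropped, and a probe had the mean log2 signal of its spots, less the 75th percentile of its array. Probes had to be well above background on 2 or more of 6 arrays, and the tests used the brightest probe per symbol (13298 genes) and 5466 probes without a symbol, and all 10 members passed. Symbols came from RefSeq accessions and a RefSeq gene table (GRCm38.p6), which named 27143 probes. limma 3.58.1 in R 4.3.3 fitted the 3 groups over all 6 arrays (residual degrees of freedom 3, prior 1.41), two-sided, with Benjamini-Hochberg adjustment over 18764 features. The SE and 95% intervals are those of the fit. The line comparison had 2 residual degrees of freedom. Both fits were tested on simulated data. A gene not well above background in a group has a bound in place of a fold.

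Same-numbered mock and Flag-Dppa2 arrays come from the same knockout line, and their deviations from the group means correlated at 0.59. The correlation was -0.04 between mock and wild type and 0.01 between Flag-Dppa2 and wild type.

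The members, the gene lists and the markers were chosen with earlier results of these data known. All members are named. From each of the other p53 lists the called genes (at most 5) are named and, where fewer than 2 were called, the 2 lowest adjusted p. Atr, and Bcl2l11 in mock against wild type, are named for a dimmer probe that passed. From the marker lists the called genes are named, with some uncalled ones, and other uncalled markers appear only in the sums. Dppa2, Dppa4 and the 3 most alike genes of Trp53, Cdkn1a and Gadd45a are named too. The line comparison and the other genes named in it were chosen after their values were seen. Normexp (offset 50) used the median spot signal. The values of 1 listed gene are not reported here. Promoter sequences are from RefSeq for 8 of the 10 genes, and those of Pmaip1 and Trp53inp1 were not searched. Figures were drawn with Python 3.11.15 and matplotlib 3.10.9.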

Additional observations from a re-analysis of the deposited data

Results flagged for a closer look

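The following comparisons had opposite signs in the 2 knockout lines. Each line has 1 array per group, so the difference was not tested, and wild-type arrays are paired with knockout arrays by number only.

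Against wild type, mock was higher in line 1 and lower in line 2 for 3 genes. For Ccng1 the difference was 0.29 in line 1 and -0.37 in line 2, a gap of 0.66. For Bbc3 it was 0.46 and -0.15, a gap of 0.60. For Pmaip1 it was 0.53 and -0.12, a gap of 0.65.

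Flag-Dppa2 against wild type split the same way for those 3 genes and for Cdkn1a. Cdkn1a differed by 0.35 in line 1 and -0.53 in line 2, a gap of 0.88. The gap was 0.47 for Ccng1, 0.50 for Bbc3 and 0.56 for Pmaip1. Both comparisons share their wild-type arrays, and all these gaps carry the line difference given above.

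Flag-Dppa2 against mock had opposite signs for 4 genes, with small differences in each line. Line 1 minus line 2 was -0.22 for Mdm2, -0.46 for Gadd45a, -0.33 for Trp53inp1 and 0.31 for Bax. For Gadd45a the difference was -0.20 in line 1 and 0.27 in line 2.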

How the results depend on the processing

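For mock against wild type, where 1 member was called, 2 were called with normexp and with an intensity trend (Gadd45a and Trp53), and 0 with no filter on dim probes, with the replicate block, with the wild-type arrays averaged and with only the groups compared. Leaving out 1 array gave 0 to 1 called, and Gadd45a was lost without either wild-type array (adjusted p = 0.304 and 0.280), mock replicate 1 (0.0731) or either Flag-Dppa2 array (0.0681). For Flag-Dppa2 against wild type, where 0 were called, 1 was called with normexp and with the trend (Gadd45a, adjusted p = 0.0438 and 0.0478). Flag-Dppa2 against mock gave 0 under every alternative run. The replicate block changed no other call of a member. It took the calls over all features from 1149 to 494, 139 to 4 and 100 to 0 in mock against wild type, Flag-Dppa2 against mock and Flag-Dppa2 against wild type. Between the lines, where 5 were called, 0 were called with no filter and with the wild-type arrays averaged, and 0 to 6 when 1 array was left out. The other alternatives gave 6, with Mdm2 added. Without either wild-type array 0 were called, without either mock array 4. Calls over all features were 1149 in mock against wild type, 384 with no filter, 1761 with the trend and 0 to 888 with 1 array left out. They were 139 in Flag-Dppa2 against mock, 53 with normexp, 28 with probes above background on all 6 arrays, 48 with no filter, 0 on the 4 knockout arrays alone and 0 to 112 with 1 array left out. They were 100 in Flag-Dppa2 against wild type, 222 with quantile normalization, 390 with normexp, 223 with the series matrix, 23 with probes above background on all 6 arrays, 6 with no filter, 5 with only the groups compared, 301 with the trend and 0 to 5 with 1 array left out. Between the lines they were 4669, 151 with no filter and 0 to 4887 with 1 array left out. Averaging the wild-type arrays gave 0 in all of these.

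No difference that passed the test changed direction, and the signs that turned belong to small differences. Ccng1 turned to 0.0037 with normexp in mock against wild type, and to -0.025 with quantile normalization and -0.025 with the series matrix in Flag-Dppa2 against wild type. When 1 array was left out, the differences ran as follows. In mock against wild type they ran from -0.38 to 0.30 for Ccng1, -0.15 to 0.46 for Bbc3 and -0.12 to 0.53 for Pmaip1. In Flag-Dppa2 against mock they ran from -0.41 to 0.30 for Trp53inp1, -0.092 to 0.15 for Bax, -0.49 to 0.12 for Bbc3, -0.28 to 0.21 for Mdm2, -0.24 to 0.44 for Ccng1, -0.27 to 0.37 for Pmaip1 and -0.16 to 0.23 for Gadd45a. In Flag-Dppa2 against wild type they ran from -0.19 to 0.31 for Ccng1, -0.021 to 0.53 for Pmaip1, -0.28 to 0.22 for Bbc3 and -0.56 to 0.37 for Cdkn1a. Between the lines they ran from -0.071 to 0.39 for Gadd45a and -0.067 to 0.24 for Bax. The causes were not tested. A slide block could not be fitted, since the second slide holds both Flag-Dppa2 arrays and no others. Averaging the wild-type arrays leaves 1 residual degree of freedom fewer. The signals of the members lay well above background on every array.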
